A study of Mus musculus with 8 samples.

Results

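The genes examined are those of hemoglobin, heme synthesis and iron handling: *Hba-a1*, *Hbb-b1*, *Alas2*, *Alas1*, *Hp*, *Hpx*, *Cp*, *Tfrc*, *Fth1* and *Hamp*. Every probe that carries one of these names on the array was taken, and 8 of the 10 genes had one, with 13 probes in all, among 27962 gene names and 41174 probes. *Hpx* and *Hamp* had no probe under these names, and the probes of their older names *Hpxn* and *Hamp1*, matched by accession, are described apart. The rule takes probes by gene name only and not by their values.

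Male C57BL/6J mice of 8 to 12 weeks received a sham operation or permanent occlusion of the middle cerebral artery (PMCAO), a stroke model in which an intraluminal filament closes the vessel for good. Each mouse was then injected into the brain ventricle with 1 µl of saline or of saline with 1 pmol PACAP38, a neuropeptide studied for protection of neurons. After 6 h or 24 h the right (ipsilateral) hemisphere was taken whole, with infarct core, penumbra and non-ischemic tissue but without olfactory bulb and cerebellum, and RNA of 3 mice was pooled for each of 8 groups. Whether blood was washed out of the vessels before dissection was not given in the sources used here. PACAP38 and saline pools of one surgery and time were hybridized together on a first array with PACAP38 in the red dye Cy5 and on a second array with PACAP38 in the green dye Cy3. The labels number the 2 arrays as Pooled 1 and Pooled 2, while the study's methods describe labeling of the same RNA with either dye. The 2 arrays were therefore taken as 1 RNA measured again, so that each group is 1 pool without replicate, the dye orientations give technical error only, and no test was made within a comparison. Were they separate pools, the spread between them would also hold that between mice.

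Hemoglobin is the oxygen carrier of red blood cells and joins alpha chains (*Hba-a1*) and beta chains (*Hbb-b1*) around heme, and its mRNA persists in young red cells in the blood and is also reported in neurons and glia. Heme is built in a pathway whose first enzyme is ALAS2 in erythroid cells and ALAS1 in all others. When red cells break, haptoglobin (*Hp*) binds free hemoglobin and hemopexin (*Hpx*) binds free heme, ceruloplasmin (*Cp*) oxidizes iron for its export, the transferrin receptor (*Tfrc*) takes iron up, ferritin heavy chain (*Fth1*) stores it, and the liver hormone hepcidin (*Hamp*) blocks its export.

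All 13 probes were well above background in all 16 channels (8 arrays, 2 dyes) and none was saturated. The 6 h arrays lay on one slide and the 24 h arrays on another, read with another scanner, so time and slide cannot be told apart, while sham and PMCAO of one time shared a slide. The second sham array of 6 h stood apart, with 10.7% of its spots marked as outliers by the scanner software against 0.323% to 3.09% on the other arrays. Marked spots were left out, which removed 4 of the 13 probes from the sham comparison at 6 h. Over all probes, the ratios of the 2 dye orientations, turned the same way, correlated with r of −0.148 (sham, 6 h), −0.14 (PMCAO, 6 h), −0.417 (sham, 24 h) and 0.053 (PMCAO, 24 h). Neuron and oligodendrocyte markers were well above background in every channel (8 of 8 and 7 of 7 genes measured).

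The sequences of the globin probes are shown because their values are read together below although the probes share bases. Both *Hba-a1* probes come from chromosome 11 (plus strand, build mm7, chr11:32235785-32235966 and chr11:32235937-32235996). Capitals mark a shared stretch of 30 bases with 3 mismatches, T37C, C49T and C52T, counted from the 5′ end of the first probe.
Hba-a1 A_52_P278538: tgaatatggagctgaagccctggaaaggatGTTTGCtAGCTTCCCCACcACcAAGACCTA
Hba-a1 A_52_P208681: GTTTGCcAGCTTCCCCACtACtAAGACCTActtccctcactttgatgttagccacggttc

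The *Hbb-b1* probes come from the minus strand of chromosome 7 (mm7, chr7:99864335-99864394, chr7:99864305-99864363 and chr7:99864621-99864680 for those shown). Capitals mark 29 bases that the first and the second hold in common. Their accession carries the symbol *Hbb-bt* in the RefSeq table of GRCm38.p6, and the third probe and a probe not shown, A_52_P213909, are also assigned in the files to the beta chain gene *Hbb-b2*, so these probes cannot be read as 1 gene each. No probe carried the names *Hba-a2* or *Hbb-b2*.
Hbb-b1 A_52_P260346: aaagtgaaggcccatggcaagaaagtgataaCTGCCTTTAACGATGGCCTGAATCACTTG
Hbb-b1 A_51_P374476: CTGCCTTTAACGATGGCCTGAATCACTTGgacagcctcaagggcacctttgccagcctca
Hbb-b1 A_51_P374468: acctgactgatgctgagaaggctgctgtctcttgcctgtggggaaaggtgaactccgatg

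The single probes of *Hp* (mm7, chr8:108175404-108175463, minus strand) and *Cp* (mm7, chr3:19721093-19721152, plus strand) are shown because these members passed the fold limits at 24 h.
Hp A_51_P235945: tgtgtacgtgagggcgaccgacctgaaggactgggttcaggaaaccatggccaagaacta
Cp A_51_P493234: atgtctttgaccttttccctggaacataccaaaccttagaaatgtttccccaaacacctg

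The promoters of both globin genes and of *Alas2*, the erythroid members, follow as the 250 bases before the start site in RefSeq (GRCm38.p6), where 9 of the 10 genes had an entry. *Hba-a1* is at chr11:32283422-32283671 (plus), *Hbb-bt* at chr7:103813924-103814173 (minus) and *Alas2* at chrX:150547167-150547416 (plus). Capitals mark GATAAG, the letters that the erythroid factor GATA1 is known to bind, found on the printed strand at −182 from the start of *Hba-a1* and at −204 from that of *Hbb-bt*. The *Alas2* window held no GATAAG on either strand. Only these letters were searched for GATA1, so other sequences that it may bind were not looked for. Of 32851 promoters of this length, 6.55% held GATAAG or its reverse complement. CACCC, also searched on both strands and held by 52% of all promoters, occurred 2 times, 3 times and 3 times. A match is a description of these letters only.
Hba-a1: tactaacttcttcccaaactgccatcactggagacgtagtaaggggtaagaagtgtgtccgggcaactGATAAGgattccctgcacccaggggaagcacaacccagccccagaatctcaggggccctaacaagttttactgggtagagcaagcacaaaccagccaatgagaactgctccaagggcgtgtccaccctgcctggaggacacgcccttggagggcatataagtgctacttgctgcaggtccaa
Hbb-bt: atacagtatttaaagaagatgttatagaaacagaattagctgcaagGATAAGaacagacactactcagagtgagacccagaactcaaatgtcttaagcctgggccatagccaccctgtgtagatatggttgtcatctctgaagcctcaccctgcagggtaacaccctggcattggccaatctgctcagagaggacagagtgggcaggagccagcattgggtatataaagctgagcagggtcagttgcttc
Alas2: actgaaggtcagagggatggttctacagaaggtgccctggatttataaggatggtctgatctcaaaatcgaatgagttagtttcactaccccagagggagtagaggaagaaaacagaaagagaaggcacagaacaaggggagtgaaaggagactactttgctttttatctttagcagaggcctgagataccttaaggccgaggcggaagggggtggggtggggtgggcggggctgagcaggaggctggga

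Levels are given as log2 of the processed signal over the 75th percentile of the channel, and the level of a pool is the mean of its 2 dyes. Levels serve to compare pools for one probe and not one probe with another.

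**Figure D1:**
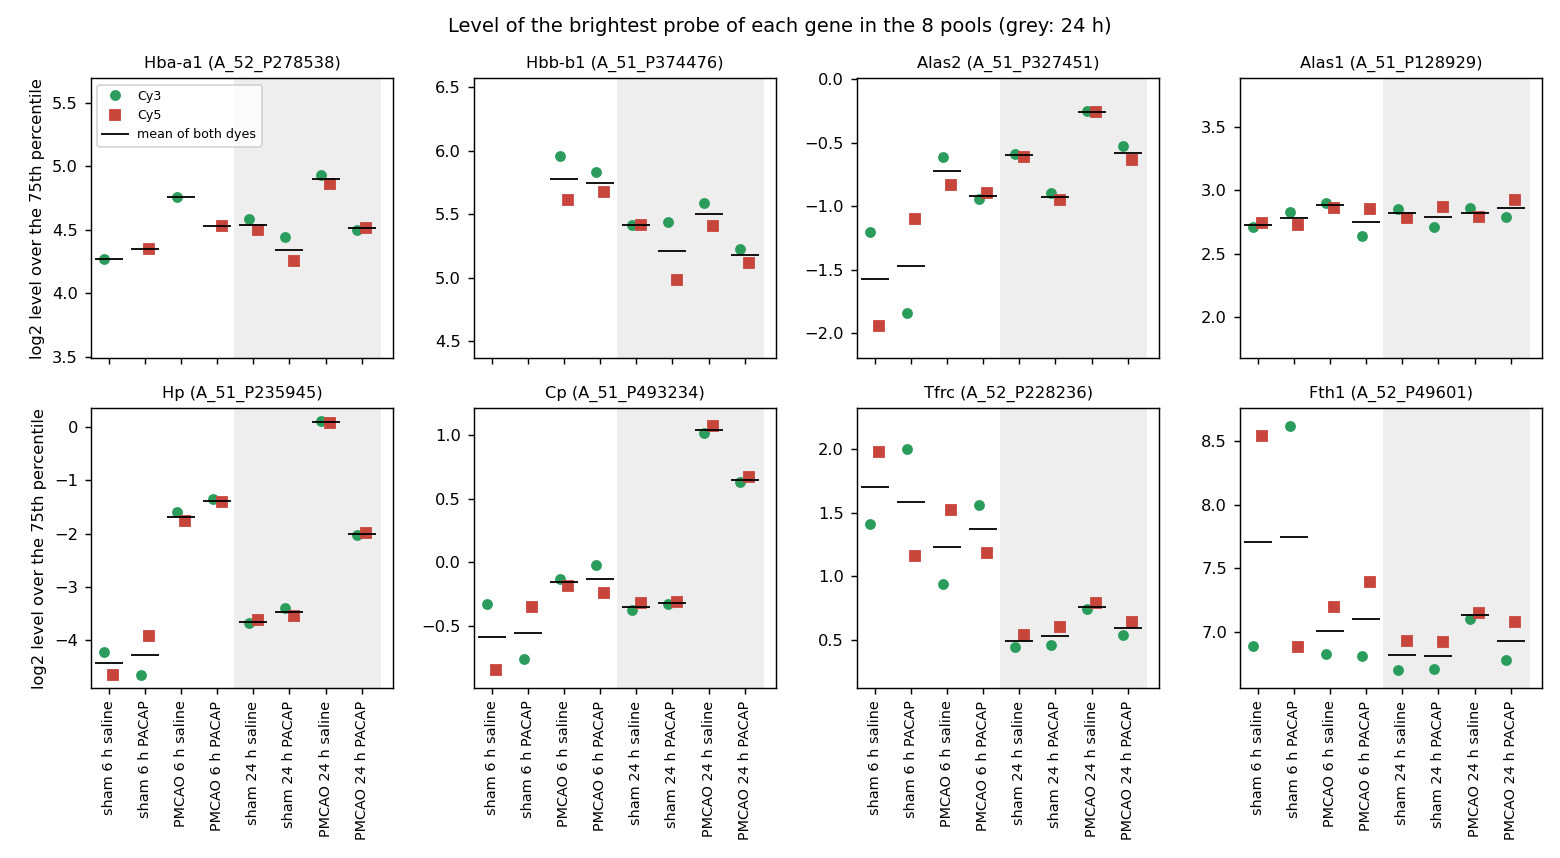
Levels of 1 probe per gene in the 8 pools (log2 over the 75th percentile of the channel, a separate scale in each panel), with Cy3 as green circles, Cy5 as red squares, the mean as a line and 24 h shaded; dye orientations without a point were left out as outlier spots. *Hp* ranged from −4.42 in sham with saline at 6 h to 0.09 in PMCAO with saline at 24 h, whereas *Alas1* stayed between 2.73 and 2.88, and *Fth1* at 6 h in sham shows the array that stood apart.

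The globin probes gave lower values with PACAP38 than with saline at 24 h in both sham and PMCAO mice, by less than the fold limits of the study. For the probe of *Hbb-b1* with a value in every channel and the closest dyes, A_51_P374468, the level at 24 h was 1.89 in sham with saline and 1.70 in sham with PACAP38. In PMCAO it was 2.25 with saline and 1.91 with PACAP38. The dyes differed by 0.03 to 0.26 in these pools, which overlap in sham (Cy5 with saline 1.78, Cy5 with PACAP38 1.82) and not in PMCAO (2.23 and 2.27 against 1.89 and 1.92).

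The same order held for the alpha chain. *Hba-a1* A_52_P278538 had a level at 24 h of 4.54 in sham with saline and 4.34 in sham with PACAP38, with 4.58 and 4.50 in Cy3 and Cy5 for the first and 4.44 and 4.25 for the second. In PMCAO it was 4.90 with saline (4.93 and 4.86) and 4.51 with PACAP38 (4.50 and 4.51). The dyes of the saline and PACAP38 pools did not overlap after either surgery.

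On the log2 ratio of PACAP38 over saline, measured on the same array, the means of the 6 globin probes at 24 h lay between −0.27 and −0.19 in sham (median −0.21) and between −0.40 and −0.31 in PMCAO (median −0.33). All 6 were below 0 in sham and in PMCAO, where 41.4% and 36.6% of all probes were, and the median of all probes was 0.00. Of the single arrays, 6 of 6 and 5 of 6 probes were below 0 in sham and 6 of 6 and 6 of 6 in PMCAO. The exception was *Hbb-b1* A_51_P374476 at 0.03 on the second sham array, against −0.45 on the first. Because the probes detect overlapping transcripts, 6 probes are not 6 independent measurements. The shares of all probes below 0 leave out ratios of exactly 0. With another background correction, normexp, followed by loess, they were 48% in sham and 48.1% in PMCAO. The globin medians were then −0.23 and −0.35, with all 6 means again below 0. *Hba-a1* A_52_P208681 in PMCAO went from 0.755-fold to 0.745-fold, just past the limit of 0.75-fold. In bulk RNA, fewer red cells in the tissue and less globin mRNA per cell cannot be told apart.

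At 6 h the globin ratios lay around 0. Of the 6 probes, 4 had a value on both PMCAO arrays, with means from −0.13 to 0.03, and 2 on both sham arrays, with means of 0.09 and 0.11. The 4 sham values on the first array ranged from −0.18 to 0.18 and the 3 on the second, the one that stood apart, from 0.26 to 0.43.

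*Alas2*, the erythroid enzyme of heme synthesis, was also lower with PACAP38 at 24 h. PACAP38 over saline was −0.37 and −0.28 on the 2 arrays of sham at 24 h (mean −0.32, 0.798-fold) and −0.38 and −0.25 in PMCAO at 24 h (mean −0.31, 0.805-fold). On the arrays of 6 h it was 0.09 and 0.10 for sham and −0.31 and −0.12 for PMCAO. *Alas1*, the enzyme of all other cells, had ratios between −0.08 and 0.08 on every array of 24 h for both of its probes. At 6 h in PMCAO *Alas1* A_52_P129756 was at −0.44 and −0.28 and *Alas1* A_51_P128929 at −0.06 and −0.22, so the 2 probes differed in size.

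Past the limits of the study, above 1.5-fold or below 0.75-fold, lay 1 of the 13 member probes in PMCAO at 24 h, *Hp*, below the limit, where 8.18% of 41167 probes were below and 2.99% above. In sham at 24 h it was 0 of 13 (3.87% of all probes below and 1.75% above). In PMCAO at 6 h it was 0 of 11 with a value on both arrays (6.9% below and 5.41% above), and in sham at 6 h 0 of 9 (7.48% below and 3.98% above). The median ratio of the members was 0.06 (sham) and 0.00 (PMCAO) on the slide of 6 h, and −0.19 (sham) and −0.32 (PMCAO) on that of 24 h. The count of 1 of 13 is close to the share of all probes below the limit.

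**Figure D2:**
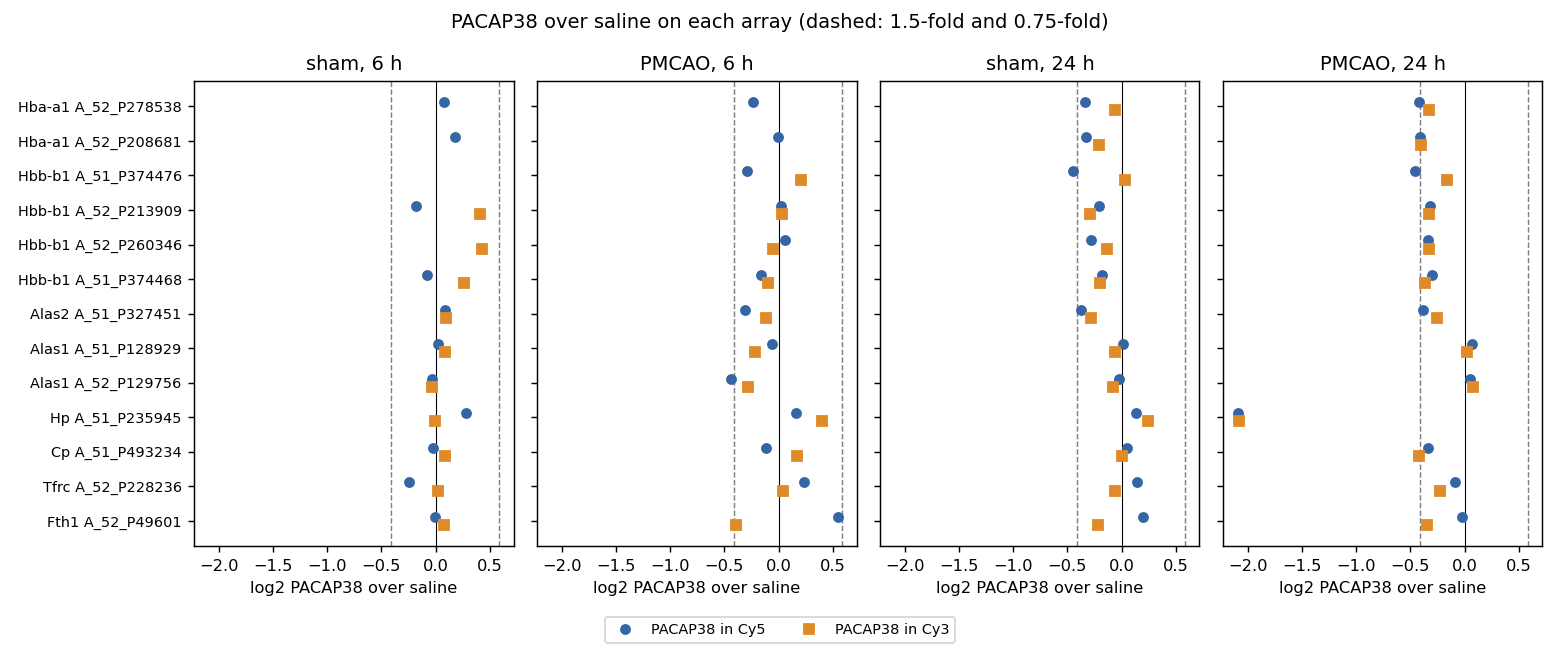
Log2 ratio of PACAP38 over saline for the 13 probes on each array (blue circles, PACAP38 in Cy5; orange squares, PACAP38 in Cy3), with dashed lines at 1.5-fold and 0.75-fold. *Hp* in PMCAO at 24 h stands at −2.09 and −2.08, and the 6 globin probes of PMCAO at 24 h lie between −0.46 and −0.16.

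*Hp*, which binds free hemoglobin, was the member with the largest differences. Its level was −4.42 in sham with saline and −4.28 in sham with PACAP38 at 6 h, and −1.68 and −1.38 in PMCAO. At 24 h it was −3.65 and −3.46 in sham with saline and with PACAP38, then 0.09 in PMCAO with saline and −2.00 in PMCAO with PACAP38. The dyes differed by 0.43 and 0.73 in the sham pools of 6 h and by at most 0.17 elsewhere, and no sham value reached any PMCAO value.

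For *Hp*, PMCAO over sham was therefore 6.71-fold with saline and 7.46-fold with PACAP38 at 6 h, and 13.4-fold with saline and 2.75-fold with PACAP38 at 24 h. The log2 ratio of PACAP38 over saline was 0.28 and −0.01 on the arrays of sham at 6 h, 0.16 and 0.40 for PMCAO at 6 h, and 0.13 and 0.24 for sham at 24 h. In PMCAO at 24 h it was −2.09 and −2.08, a mean of 0.236-fold. Thus the pool of PMCAO with PACAP38 at 24 h lay above both sham pools and below the saline pool of PMCAO in both dyes. The size depended on the background correction, since with normexp PMCAO over sham was 2.71-fold, 2.89-fold, 5.96-fold and 1.5-fold in the same order, and PACAP38 over saline in PMCAO at 24 h 0.271-fold. The sham levels of *Hp*, from −4.42 to −3.46, lay in the range described below as close to background for *Hpxn*. With 1 pool of 3 mice on each side, the spread between mice was not measured.

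*Hp* is also a transcript of neutrophils, and the summed signal of their markers was likewise higher in PMCAO than in sham. With PACAP38 in PMCAO at 24 h it was likewise lower than with saline. The summed signal of 10 neutrophil genes, relative to the 75th percentile, was 2.8 in sham with saline and 3.64 in sham with PACAP38 at 6 h, with 9.56 and 14.4 in the PMCAO pools of that time. The sham pools of 24 h had 0.825 and 1.21, and the PMCAO pools 51.8 with saline and 6.21 with PACAP38. From the sham pools of 6 h to those of 24 h the sum fell whereas *Hp* rose, where time and slide cannot be told apart. Of the 10 genes, 8 were below 0.75-fold with PACAP38 in PMCAO at 24 h and none above 1.5-fold (median log2 ratio −2.35, median of all genes 0.00, with 8.32% of all genes below and 3.08% above). The defining neutrophil genes *Camp* and *Ela2* were not well above background in any channel, *Ngp* was in 2 of 16 and *Mpo* in 14. *Camp* (−0.98) and *Ngp* (−3.12) are among the 8, whereas *Mpo* was at −0.23. Only 2 of the 10, *S100a8* (−2.91) and *S100a9* (−3.08), were well above background in every channel. In the PMCAO pools of 24 h the sum was mostly *S100a9* (level 5.50 with saline and 2.40 with PACAP38). *Hp* is known as a liver gene too, and of 6 measured genes of hepatocytes and plasma proteins *Alb*, *Apoa1* and *Ahsg* were not well above background in any channel, and *Ttr*, also a choroid plexus gene, was in all 16. The summed signal of 5 of these genes with values in every pool ranged from 0.0409 to 0.117. Lower values with PACAP38 in PMCAO at 24 h were not particular to neutrophil genes. Most endothelial markers and the genes known to respond to PMCAO, given below, were also lower there. The part of neutrophils in the *Hp* result was not tested.

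*Cp*, the ferroxidase ceruloplasmin, differed at 24 h. Its level was −0.35 and −0.32 in sham with saline and with PACAP38, 1.04 in PMCAO with saline and 0.65 in PMCAO with PACAP38, with the dyes apart by at most 0.06. PMCAO over sham at 24 h was thus 2.62-fold with saline (1.39 in each dye on the log2 scale) and 1.96-fold with PACAP38 (0.98 and 0.96). PACAP38 over saline in PMCAO at 24 h was −0.34 and −0.42, a mean of 0.768-fold and just inside the limit of 0.75-fold, whereas in sham it was 0.05 and −0.00. At 6 h the level was −0.59 and −0.56 in sham and −0.16 and −0.13 in PMCAO, and the difference was 0.20 and 0.66 in the 2 dyes with saline and 0.11 and 0.75 with PACAP38, so the larger values came from the array that stood apart, and with normexp both means were 1.71-fold.

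**Figure D3:**
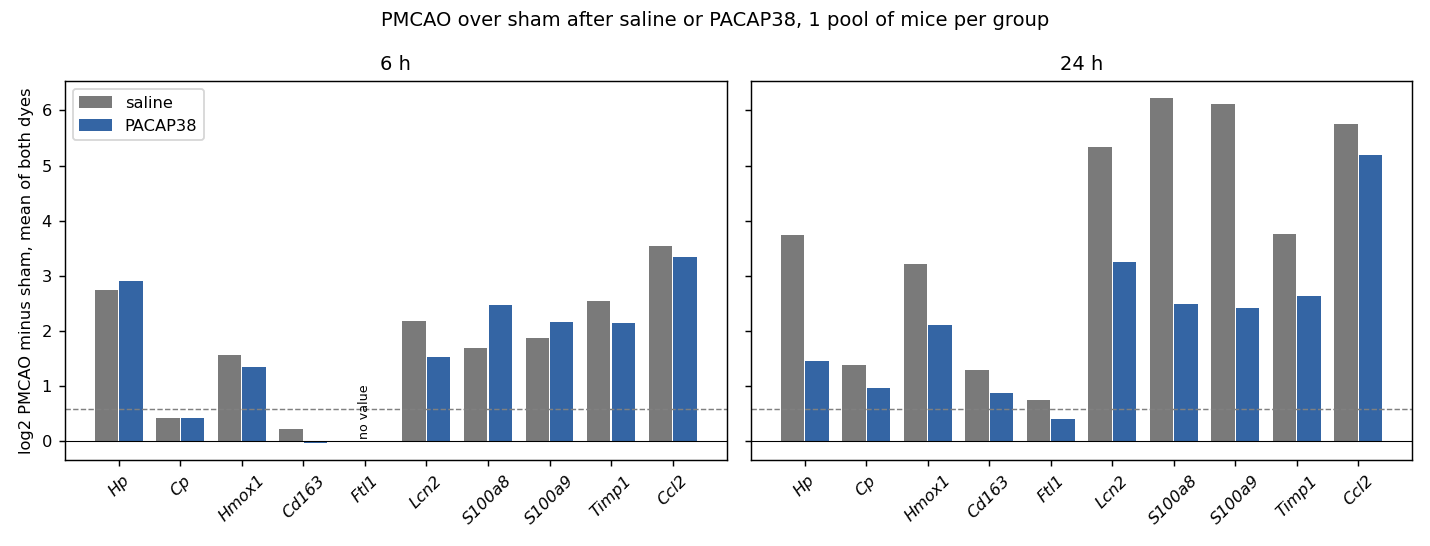
Log2 difference of PMCAO minus sham (mean of both dyes, 1 pool of mice per group) at 6 h and 24 h for *Hp*, *Cp* and other genes, with saline in grey, PACAP38 in blue and a dashed line at 1.5-fold; *Ftl1* had no value in both dyes at 6 h. At 24 h all 10 genes shown are lower with PACAP38 than with saline, with *Hp* at 1.46 against 3.74 and *S100a8* at 2.49 against 6.22. The 10 were picked by hand and not by a rule, so their common direction is no result about the lists. Others of the iron list went the other way, such as *Slc11a2* (0.68 with PACAP38 against 0.62 with saline) and *Tmprss6* (0.85 against 0.56).

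The probe named *Hpxn*, the older name of *Hpx*, was well above background in 15 of 16 channels. PMCAO minus sham at 24 h was 0.64 with saline and 0.78 with PACAP38 on the log2 scale. At 6 h it was 0.44 on the first and 1.53 on the second arrays with saline (mean 0.99), and −0.08 and 2.50 with PACAP38 (mean 1.21), so that without the second arrays, which include the one that stood apart, the value with PACAP38 was below 0. PACAP38 over saline in sham at 6 h was 0.17 and −1.22 on the same arrays (mean 0.695-fold, and 1.01-fold with normexp), and the means of the other comparisons lay between −0.31 and 0.24. With normexp PMCAO minus sham was 0.15 and 0.10 at 6 h and 0.19 and 0.29 at 24 h, so that all 4 lay inside the fold limits, and the level of −4.88 to −3.37 was close to background. The probe *Hamp1*, hepcidin, was not well above background in any of the 16 channels, and no fold is given.

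The globin and *Alas2* probes were higher in PMCAO than in sham at 24 h by small amounts. With saline the 6 globin probes differed by 0.08 to 0.41 (median 0.34, 6 of 6 above 0, where 51.9% of all probes were), and with PACAP38 by −0.03 to 0.32 (median 0.17, 5 of 6 above 0, where 53.9% were). *Alas2* had a level of −0.60 in sham with saline and −0.26 in PMCAO with saline, and −0.93 and −0.58 with PACAP38. The difference of *Alas2* was 0.34 and 0.36 in the 2 dyes with saline and 0.31 and 0.37 with PACAP38. For *Alas2* sham and PMCAO did not overlap within an injection. Sham with saline (−0.59 and −0.61) lay inside PMCAO with PACAP38 (−0.53 and −0.64). None of these means passed 1.5-fold at 24 h. With normexp that of *Hbb-b1* A_52_P213909 did, at 1.78-fold with saline and 1.72-fold with PACAP38. The 2 dye orientations of this probe lay apart, 0.03 and 0.78 with saline and −0.09 and 0.73 with PACAP38. *Hbb-b1* A_51_P374476 was at 0.17 and −0.01 with saline and at 0.15 and −0.21 with PACAP38.

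At 6 h *Alas2* had a level of −1.57 and −1.47 in sham with saline and with PACAP38, and −0.72 and −0.92 in PMCAO. The difference was 0.59 with Cy3 and 1.11 with Cy5 for saline (mean 1.8-fold), and 0.90 with Cy3 and 0.20 with Cy5 for PACAP38 (mean 1.47-fold), the larger of each pair from the second arrays. *Hbb-b1* A_51_P374468 was 0.65 and 0.77 higher with saline (1.63-fold) and 0.58 and 0.41 higher with PACAP38 (1.41-fold). The 2 *Hba-a1* probes had a value in 1 dye orientation only and were 0.49 and 0.51 higher with saline and 0.18 and 0.33 with PACAP38. *Hbb-b1* A_52_P260346 was 2.69 and 2.21 higher, but these values rested on the second sham array alone. Its level there was 1.64 and 2.07, against 3.61 to 4.33 in the channels of the PMCAO and 24 h arrays. The first sham array of 6 h, taken as the same RNA, had no value for this probe. *Hbb-b1* A_52_P213909 went in opposite directions in the 2 dye orientations at 6 h, 0.22 and −0.58 with saline and 0.43 and −0.95 with PACAP38. The beta chain probes therefore gave no single value at 6 h.

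*Tfrc*, spotted 10 times on each array, was lower in PMCAO at 6 h with saline (−0.47 in each dye, 0.723-fold), and 0.02 and −0.45 with PACAP38. At 24 h it was 0.27 higher with saline and 0.06 with PACAP38. The value at 6 h with saline was 0.00 with normexp. Across the slides its level ranged from 1.23 to 1.70 on that of 6 h, and from 0.49 to 0.76 on that of 24 h, where time and slide cannot be told apart.

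*Fth1* had the same level in both sham pools at 6 h, 7.71 and 7.75, but with 6.89 and 6.88 on the first array and 8.54 and 8.62 on the second. PMCAO minus sham at 6 h was −0.06 and −1.34 in the 2 dye orientations with saline and 0.51 and −1.81 with PACAP38, so the mean of −0.70 and −0.65 rested on the second sham array. At 24 h the differences were 0.40 and 0.22 with saline (mean 1.24-fold) and 0.16 and 0.07 with PACAP38 (1.08-fold). At 24 h PMCAO with saline (7.10 and 7.15) lay above sham with saline (6.70 and 6.93), whereas PMCAO with PACAP38 (6.78 and 7.08) overlapped sham with PACAP38 (6.71 and 6.92).

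Of the member probes, past the fold limits in PMCAO over sham at 24 h lay 2 of 13 with saline, *Hp* and *Cp*, both above (9.56% of all probes above and 13.3% below), and the same 2 of 13 with PACAP38 (6.39% above and 8.19% below). At 6 h it was 4 above and 2 below of 9 with saline (19.5% of all probes above and 34.9% below), namely *Hbb-b1* A_51_P374468, *Alas2*, *Alas1* A_52_P129756 and *Hp* above and *Tfrc* and *Fth1* below. This split depended on the processing, with 6 above and 0 below of 9 after normexp, 4 and 0 of 9 after quantile normalization, 2 and 2 of 9 after median centring, 9 and 0 of 13 with outlier spots kept, 3 and 1 of 11 on the first arrays alone and 6 and 3 of 10 on the second. With PACAP38 at 6 h it was *Hp* above and *Fth1* below of 9 (17% above and 30.6% below). The median of all probes at 6 h was −0.13 with saline and −0.06 with PACAP38, against 0.02 and 0.03 at 24 h, and by dye it was 0.11 in the first and −0.43 in the second dye orientation of saline. With median centring of the channels, the 6 h values of *Hp* were 2.58 with saline and 2.73 with PACAP38. In the same order they were 0.69 and 0.38 for *Alas2*, −0.63 and −0.39 for *Tfrc* and −0.86 and −0.82 for *Fth1*. Median centring replaced the percentile scaling, so these values are not differences from the medians of all probes given above.

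**Figure D4:**
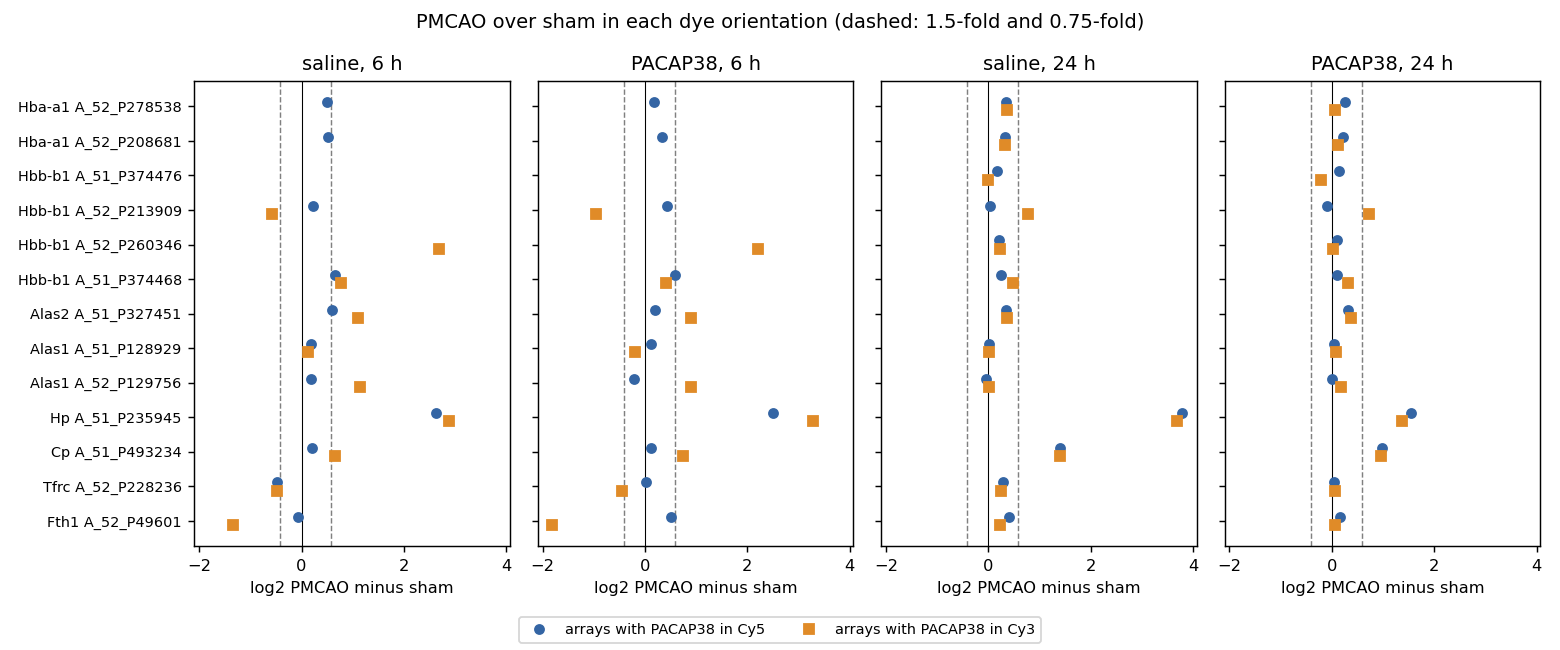
Log2 difference of PMCAO minus sham for the 13 probes in each dye orientation (blue circles, arrays with PACAP38 in Cy5; orange squares, arrays with PACAP38 in Cy3), with dashed lines at 1.5-fold and 0.75-fold. At 24 h with saline the 2 orientations lie close together for *Hp* (3.79 and 3.69) and *Cp* (1.39 and 1.39). They lie apart for *Hbb-b1* A_52_P213909 (0.03 and 0.78). At 6 h *Fth1* stands at 0.51 and −1.81 with PACAP38.

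Other steps of the same pathways were compared by 1 probe per gene, the brightest. In heme synthesis beyond the *Alas* genes, 0 of 10 genes passed a limit at 24 h with either injection (9.61% of all genes above and 13.5% below with saline, 6.52% and 8.47% with PACAP38), with medians of −0.09 and 0.01. At 6 h it was 1 above and 4 below of 8 with either injection (19.3% above and 35.2% below with saline, 16.4% and 31.5% with PACAP38). The gene above was *Ppox*, an enzyme late in heme synthesis. Genes named in this paragraph and the next, other than *Hmox1*, *Ftl1*, *Trf*, *Slc40a1* and *Lcn2*, were chosen after their values were seen.

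Among genes of heme uptake, breakdown and export, 3 of 10 were above 1.5-fold in PMCAO over sham at 24 h with saline and 2 of 10 with PACAP38, and none was below (of all genes 9.61% and 6.52% were above and 13.5% and 8.47% below). These were *Hmox1*, the enzyme that opens the heme ring, and *Cd163*, the macrophage receptor for the haptoglobin and hemoglobin complex, with both injections, and *Blvrb*, a biliverdin reductase, with saline. *Hmox1* was 9.22-fold with saline (3.29 and 3.13 in the 2 dyes on the log2 scale) and 4.31-fold with PACAP38 (2.16 and 2.06). In PMCAO at 24 h PACAP38 over saline was −1.28 and −1.19 for *Hmox1*, and of the 10 genes 2 were below 0.75-fold, *Hmox1* and *Blvrb*, where 8.32% of all genes were. At 6 h *Hmox1* was 2.95-fold with saline and 2.55-fold with PACAP38. *Cd163* differed by 1.29 and 0.87 at 24 h on the log2 scale.

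Of 29 genes of iron uptake, storage, export and sensing, 9 were above and 3 below the limits at 24 h with saline, and 5 above and 3 below with PACAP38. Only 24 of the 29 were well above background in every channel, and the counts here include others. Of all genes, 9.61% were above and 13.5% below with saline, and 6.52% and 8.47% with PACAP38. *Lcn2*, a carrier of iron-binding siderophores, had the largest difference among those well above background in every channel, 40.4-fold with saline (5.26 and 5.41 on the log2 scale) and 9.54-fold with PACAP38 (3.23 and 3.27), and 7.13-fold and 2.97-fold with normexp. *Slc40a1*, the iron exporter ferroportin, was lower in PMCAO, −0.61 and −0.92 with saline and −0.89 and −1.02 with PACAP38. Ferritin light chain *Ftl1* was 0.57 and 0.91 higher with saline and 0.36 and 0.47 with PACAP38, and transferrin, *Trf*, was −0.15 and 0.09 with saline and −0.39 and −0.36 with PACAP38. In PMCAO at 24 h, 5 of the 29 genes were below 0.75-fold and 1 above 1.5-fold with PACAP38 over saline (8.32% and 3.08% of all genes), with *Lcn2* at −0.91 and −1.18. *Lcn2* with PACAP38 in sham at 24 h was at 1.11 and 0.94, 2.03-fold, but 1.22-fold with normexp. At 6 h 4 of 24 were above and 8 below with saline (19.3% and 35.2% of all genes), and 3 and 10 with PACAP38 (16.4% and 31.5%).

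Most other markers of red cells were at or near background. Of 12 erythroid genes measured, only *Epor*, the erythropoietin receptor, and *Bpgm* were well above background in all 16 channels, whereas *Klf1*, *Epb4.2*, *Eraf* and *Spna1* were so in none. The band 3 gene *Slc4a1*, well above background in 15 channels, had log2 ratios of PACAP38 over saline of 0.18 in sham and 0.22 in PMCAO at 24 h, whereas *Epor* was at −0.08 and −0.34 and *Rhd*, well above background in 14 channels, at 0.05 and −0.41. *Slc4a1* and *Rhd* were named after their values were seen. The summed signal of 11 erythroid genes was 1.53 and 1.46 in sham and 1.88 and 1.49 in PMCAO at 24 h with saline and with PACAP38, and the median ratio of PACAP38 over saline was 0.05 and −0.01. The part of red cells in the globin result was not tested.

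Over the 4 pairs of pools taken as replicates, which vary in time and surgery or injection, limma with Benjamini-Hochberg adjustment called 0 of 36121 probes for PACAP38 over saline (0%, with 1782 or 4.93% at an unadjusted p under 0.05), 0 for PMCAO over sham (3097 or 8.57% unadjusted), and 0 for the difference between the ratios in PMCAO and in sham (2337 or 6.47% unadjusted). For PMCAO over sham the mean log2 difference was 2.71 ± 0.79 (SE, 4 pairs, adjusted p = 0.542 in limma) for *Hp*, higher in 4 of 4 pairs, and 0.80 ± 0.29 (adjusted p = 0.542) for *Cp*, also 4 of 4. With the slide as a fixed block in place of the random one, limma called 13626 probes for PMCAO over sham, among them *Hp*, *Cp*, *Alas2* and *Hbb-b1* A_51_P374468 (adjusted p of 0.0113, 0.00965, 0.0155 and 0.0203), but that fit takes the 2 pairs of one time as independent although they share arrays. The mean difference was 0.52 ± 0.23 for *Alas2*, 0.44 ± 0.23 for *Hbb-b1* A_51_P374468, −0.23 ± 0.27 for *Fth1* and −0.09 ± 0.25 for *Tfrc*. For PACAP38 over saline *Hp* was at −0.37 ± 0.51 (adjusted p = 0.916 in limma) and *Alas2* at −0.19 ± 0.09 (adjusted p = 0.871). The ratio of *Hp* in PMCAO minus that in sham was −1.06 ± 1.01 (adjusted p = 0.798 in limma), and without the PMCAO pair of 24 h it was 0.12. Without that pair the mean of PACAP38 over saline for *Hp* was 0.20. Both *Hba-a1* probes and 2 of the *Hbb-b1* probes had missing values and were not in these fits.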

How the data were processed

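Levels were measured on 8 Agilent 2-colour arrays of 60-base probes, 2 per comparison with dyes swapped, each pool made of 300 ng RNA from each of 3 mice. The scanner software (Feature Extraction 9.5.3.1 per the submitters' notes, 9.5.1.1 in the file headers of the 6 h arrays) subtracted background and normalized the dyes to give the deposited processed intensities of each dye and the deposited log10 ratio of Cy5 over Cy3. The authors' series table holds the same ratio of Cy5 over Cy3, deposited with a minus sign as a score where PACAP38 was in Cy3. Its values differed from the processed ratio by at most 0.005, and its column medians were 0.93 to 1.01 in size. It was used for this check and as an alternative for the counts of members in PACAP38 over saline. For 3 arrays of 24 h a second copy held identical values. Probe positions are those of the files (mm7). Symbols and promoters are from RefSeq (GRCm38.p6), where 22951 probes had a symbol.

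Control and outlier spots were left out and spots of a probe averaged. PACAP38 over saline was the log2 of the deposited ratio, its sign turned where PACAP38 was in Cy3, and the 2 arrays of one RNA were averaged. PMCAO over sham was the difference of log2 intensity minus the 75th percentile of the channel, within a dye and time. Limits of 1.5-fold and 0.75-fold were those of the study. limma 3.58.1 (R 4.3.3, statmod 1.5.0) with Benjamini-Hochberg adjustment was fitted over all probes with a value in 4 pairs, with time as a random block (correlation 0.696) for PMCAO over sham, and was tested on simulated data. Alternatives were normexp (offset 50) with loess, the series table, other scalings, outlier spots kept, bright probes, a slide block and leaving out arrays or pairs. Other steps used Python 3.11.15, numpy 2.4.6, pandas 2.3.3 and matplotlib 3.10.9. The number of arrays limits the precision. Members and gene lists were chosen with earlier results of these data known. Every member probe was named. Genes of the lists were named where at least 3 of the 4 values of PMCAO over sham passed a limit in one direction, at most 10 by mean size, with the 5 genes most alike to *Hbb-b1* across pools, and *Hmox1*, *Ftl1*, *Trf*, *Slc40a1*, *Hba-a2* and *Hbb-b2* were named in any case.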

Additional observations from a re-analysis of the deposited data

Results flagged for a closer look

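For 4 member probes both values of 6 h lay on one side of 0 and both values of 24 h on the other. These differences between the times were not tested, and time and slide cannot be told apart. For PACAP38 over saline, *Hbb-b1* A_52_P213909 was at 0.11 and 0.03 at 6 h and at −0.25 and −0.32 at 24 h in sham and PMCAO, a mean difference of −0.36 on the log2 scale. *Hbb-b1* A_52_P260346 was at 0.43, from 1 array, and 0.00 at 6 h and at −0.20 and −0.33 at 24 h, a difference of −0.49. *Fth1* was at 0.04 and 0.08 and then at −0.01 and −0.19, a difference of −0.15, and its arrays at 6 h in PMCAO had opposite signs (0.55 and −0.39).

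For PMCAO over sham, *Hbb-b1* A_52_P213909 was at −0.18 with saline and −0.26 with PACAP38 at 6 h and at 0.41 and 0.32 at 24 h, a difference of 0.58. *Tfrc* went from −0.47 and −0.21 to 0.27 and 0.06, a difference of 0.51. *Fth1* went from −0.70 and −0.65 to 0.31 and 0.11, a difference of 0.89. The 6 h values of *Fth1* and A_52_P213909 differed in sign between dye orientations, except for *Fth1* with saline (−0.06 and −1.34).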

How the results depend on the processing

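No paired analysis was possible because the shared numbers 1 and 2 mark the dye orientation of the same RNA, which was averaged to 1 value per pool. Of the member values from limma, 211 kept their direction and their side of the threshold, 19 changed sign and 4 passed the threshold. The causes were not tested.

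The count of members past the limits for PACAP38 over saline in PMCAO at 24 h was 2 with normexp (1 in the report) and 2 to 3 on single arrays. On single arrays it was 0 to 1 for PMCAO at 6 h and 0 to 1 for sham at 24 h. For PMCAO over sham with PACAP38 at 6 h (2 in the report) it was 4 with normexp, 8 with outlier spots kept, 1 where each dye had to pass, and 1 to 8 in single dye orientations, with 8 from the second arrays alone. With saline at 6 h the count stayed at 4 to 9, but the members below the limit went from 2 to 0 with normexp, quantile normalization and outlier spots kept.

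In limma for PMCAO over sham, 3 probes passed among bright probes (smallest adjusted p = 0.0384) and 13626 with the slide as a fixed block, a fit that treats the 2 pairs of one time as independent although they share arrays. With that block *Hp* (2.71), *Cp* (0.80), *Alas2* (0.52) and *Hbb-b1* A_51_P374468 (0.44) passed. *Tfrc* was 0.14 with normexp, 0.14 with outlier spots kept, and 0.00 with normexp for saline at 6 h alone. Without the second arrays, an alternative added after seeing the data like the kept outlier spots in limma and the left-out pairs of the PMCAO minus sham test, *Alas1* A_52_P129756 was −0.02 and *Fth1* 0.25. *Fth1* with PACAP38 at 6 h was −1.81 and 0.51 in single dye orientations.

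Leaving out each pair of pools in turn, PACAP38 over saline ranged from −0.59 to 0.20 for *Hp*, from −0.11 to 0.03 for *Cp*, from −0.08 to 0.02 for *Tfrc*, from −0.05 to 0.04 for *Fth1* and from −0.04 to 0.03 for *Alas1* A_51_P128929. For the first 4 the highest value was that without PMCAO at 24 h. The ratio in PMCAO minus that in sham ranged from −2.24 to 0.12 for *Hp*, −0.26 to 0.10 for *Hbb-b1* A_52_P213909, −0.36 to 0.06 for *Alas2*, −0.16 to 0.03 for *Alas1* A_51_P128929, −0.32 to 0.10 for *Alas1* A_52_P129756, −0.12 to 0.17 for *Tfrc* and −0.20 to 0.07 for *Fth1*. No probe passed the adjusted threshold in these fits.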

Other observations

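Of the genes of the lists that passed a limit in at least 3 of the 4 comparisons of PMCAO with sham, only the 10 largest by mean size were named, all higher in PMCAO. Smaller differences in both directions, such as *Sostdc1* of the choroid plexus (−1.35, −1.02, −1.13 and −0.88), chosen after its values were seen, were outside this rule. Among the 10 were *Ccl2*, a chemokine for monocytes (3.55 and 3.34 at 6 h, 5.75 and 5.20 at 24 h with saline and with PACAP38, log2), *Atf3*, a stress-induced transcription factor (4.34, 4.78, 4.35 and 3.57), *Cd14*, a receptor for bacterial lipopolysaccharide (3.60, 3.48, 4.14 and 1.79), and *Timp1*, an inhibitor of metalloproteinases (2.54, 2.14, 3.76 and 2.64). The calprotectin subunit *S100a9* was at 6.11 with saline and 2.41 with PACAP38 at 24 h. *Mmp8*, *Retnlg* and *Il6* were named by the same rule but were not well above background in every channel, and no fold is given. Of 8 genes known to respond to PMCAO, 8 were above 1.5-fold at 24 h with either injection, and 8 were below 0.75-fold for PACAP38 over saline in PMCAO at 24 h, with a median of −1.23 (8.32% of all genes were below and 3.08% above). This list was chosen with results of these samples known.

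Of 7 other globin genes measured, 1 passed a limit at 24 h, the embryonic chain *Hbb-y*, at 0.89 with saline and 0.61 with PACAP38. Of all genes, 9.61% were above and 13.5% below with saline, and 6.52% and 8.47% with PACAP38. At 6 h 4 of the 7 were above and 2 below with saline (19.3% and 35.2% of all genes). With PACAP38 at 6 h it was 2 and 1 (16.4% and 31.5%). Only 3 of the 7 were well above background in every channel, and the counts of 6 h include others. At 24 h neuroglobin, *Ngb*, was at 0.36 and 0.15, and cytoglobin, *Cygb*, at 0.19 and −0.06. At 6 h *Ngb* was at −1.03 with saline and −1.09 with PACAP38, and *Cygb* at 0.98 and 0.64. *Ngb* and *Cygb* were named after their values were seen. Of 8 endothelial markers, 5 were below and 1 above the limits for PACAP38 over saline in PMCAO at 24 h (median −0.45), and of 9 choroid plexus markers 2 were below (median −0.25), against the same shares of all genes, 8.32% below and 3.08% above.

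The genes whose levels were most alike to the brightest *Hbb-b1* probe, A_51_P374476, over the 6 pools in which it had a value were AK047235 (Pearson r 0.997), 6430537H07Rik (0.994), Mta3 (0.993), AK079778 (0.992) and Crip2 (0.991), of 14413 genes. The 6 pools lay on 3 pairs of arrays and 2 slides, so the levels share arrays and slides. With outlier spots kept, over 8 pools and 15594 genes, the 5 were Vill, Lig1, Rimbp2, 2310005P05Rik and Slc22a5 (0.990 to 0.996), with none in both lists. Of the members, *Tfrc* had 0.898 over 6 pools and −0.218 over 8, and *Alas2* −0.107 and 0.876.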
